A study of Artemisia argyi with 3 samples.

Results

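The 7 unigenes described here encode 4 enzymes of the mevalonate (MVA) pathway of *Artemisia argyi*, a mugwort whose leaves are used for moxibustion. They are 7 of the 88591 unigenes in the expression table. They were taken by identifier, as labelled for these enzymes in the published scheme of terpenoid biosynthesis. These labels are the only source of the assignments other than that of MVD, which the cloning methods also name. The shading of some rows of that scheme, those of PMK among them, does not follow the deposited values of the unigene labelled there, so labels and rows may be shifted and the enzyme names below carry that doubt. Hydroxymethylglutaryl-CoA synthase (HMGS) has 3 of them, CL11653.Contig1_All, CL11653.Contig2_All and CL6988.Contig2_All. Mevalonate kinase (MK) has 1, CL12829.Contig1_All. Phosphomevalonate kinase (PMK) has 2, CL3188.Contig5_All and Unigene6783_All, and mevalonate diphosphate decarboxylase (MVD) has 1, Unigene7594_All, from which ArMVD was cloned. The suffix is left out below. Other unigenes labelled as HMGS, MK or PMK in that scheme are not among the 7. A unigene is a non-redundant sequence from the de novo assembly. Identifiers with the prefix CL are contigs of a cluster of similar sequences, while the prefix Unigene marks a singleton.

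The study sequenced leaves, roots and stems of mature plants, and the tissue of several plants was pooled into 1 library per tissue. The values are FPKM, fragment numbers corrected for the length of the unigene and the size of the library, so that levels of unigenes of different length can be set side by side. With 1 library per tissue there is no replicate, and no difference between tissues given here has an error or a test. These are whole organs, in which fewer cells of a type and less RNA per cell cannot be told apart. The table pairs no identifier with a gene name, so the tissue labels were not checked against marker genes.

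The MVA pathway runs in the cytosol and associated membranes of plant cells and makes isopentenyl pyrophosphate (IPP), the building block of sesquiterpenes, triterpenes and sterols. HMGS condenses acetoacetyl-CoA with acetyl-CoA to HMG-CoA, which HMG-CoA reductase (HMGR) reduces to mevalonate. MK and PMK then add phosphate groups to mevalonate, and MVD removes a carboxyl group from the product to leave IPP. In the plastid, the methylerythritol phosphate (MEP) pathway makes IPP by another route, mainly for monoterpenes, diterpenes and carotenoids.

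The FPKM values summed to 745319 in leaves, 684729 in roots and 732443 in stems. The number of reads behind a single value is unknown. Low FPKM values come in steps of whole fragments, and the steps of 1134 singletons between 0.2 and 0.6 FPKM put the depth of the root library at 1.06 times that of leaf. Stem was at 1.01 times leaf by 1247 singletons. A total of 24505 unigenes were above 1 FPKM in all 3 libraries. Their median log2 ratio of FPKM + 1 was 0.43 for leaf over root, 0.06 for leaf over stem and -0.42 for root over stem. After division by median-ratio size factors, which assume that most unigenes are equal between libraries, these medians were -0.09, 0.04 and 0.09. Ratios that involve root therefore shift with the scaling, and they are given below beside these medians.

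Of the 7 unigenes, 5 were above 1 FPKM in leaves, 7 in roots and 6 in stems, and 5 were above 1 FPKM in all 3 tissues. The highest level was in stem for 4 of them, in leaf for 2 and in root for 1. Under each other scaling tried, CL11653.Contig1 was highest in root instead of stem, which left 3 in stem. Among all unigenes, 35.9% were highest in stem, 36.5% in leaf and 27.0% in root. Among the unigenes above 1 FPKM in all 3 libraries, 36.6% were highest in stem, 46% in leaf and 17.3% in root. The members did not share a tissue pattern: CL11653.Contig1 of HMGS was lowest in leaf, CL11653.Contig2 of HMGS was lowest in root, CL3188.Contig5 of PMK was highest in leaf, and Unigene7594 of MVD was nearly level.

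**Figure D1:**
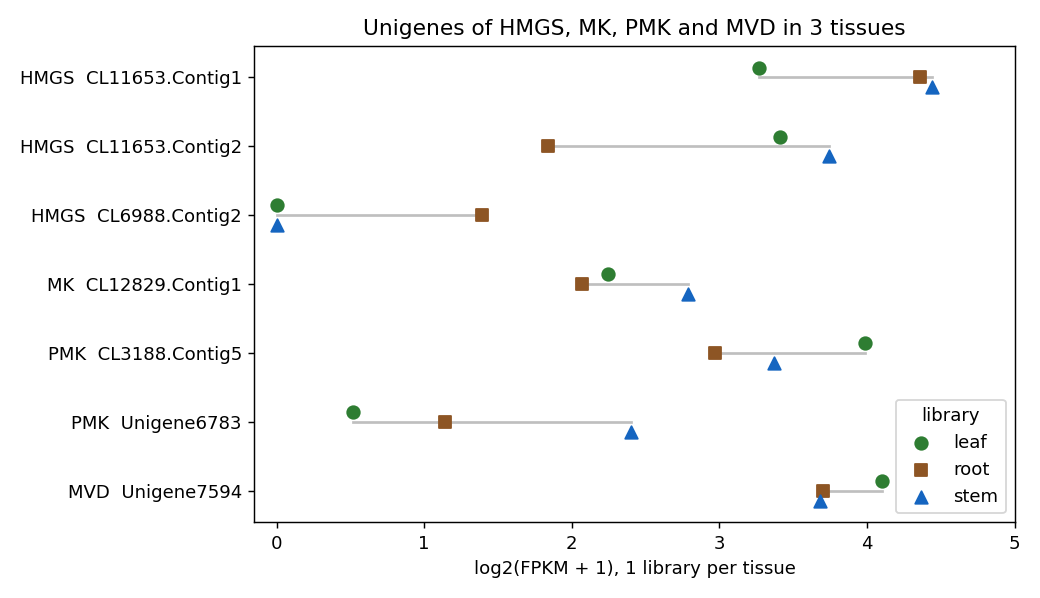
Level of each of the 7 unigenes as log2(FPKM + 1) on the horizontal axis, with 1 point per tissue library (circle for leaf, square for root, triangle for stem) and a grey line over the range. The points of Unigene7594 (MVD) lie close together, from 11.8 to 16.2 FPKM, while CL11653.Contig2 (HMGS) and Unigene6783 (PMK) are spread widest.

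CL11653.Contig1_All, the HMGS member with the highest mean over the 3 libraries, had 8.64 FPKM in leaves, 19.48 in roots and 20.69 in stems. Root and stem were close together and leaf was below both. The level was 2.25 times as high in root as in leaf and 2.39 times as high in stem as in leaf, without a pseudocount. On the scale of FPKM + 1 the log2 ratio was -1.09 for leaf over root and -1.17 for leaf over stem. The first of these differed by -1.52 from the median of the unigenes above 1 FPKM in all 3 libraries. Only 9.42% of those 24505 unigenes had a lower ratio of leaf to root, and 12.3% had a lower ratio of leaf to stem. The ratio of root to stem was -0.08 on the log2 scale and 0.51 after median-ratio scaling, so the order of root and stem depended on the scaling.

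CL11653.Contig2_All, the other contig of this cluster, had 9.63 FPKM in leaves, 2.58 in roots and 12.36 in stems. Here root was the low tissue, and leaf and stem were close. Its level was 3.73 times as high in leaf as in root and 4.79 times as high in stem as in root. The log2 ratio of FPKM + 1 was 1.57 for leaf over root and -1.90 for root over stem. After median-ratio scaling these were 1.06 and -1.40. Of the unigenes above 1 FPKM in all 3 libraries, 87.3% had a lower ratio of leaf to root, and 5.16% had a lower ratio of root to stem.

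The 2 contigs of CL11653 are the only ones of this cluster in the table, and they divided the HMGS signal differently in each tissue. Contig1 made up 47.3% of the cluster's FPKM in leaves, 88.3% in roots and 62.6% in stems. The ratio of Contig1 to Contig2, which no scaling of the libraries can change, was 0.90 in leaves, 7.55 in roots and 1.67 in stems. Between its highest and lowest tissue this ratio moved 8.42-fold. The median over the 1829 clusters with exactly 2 contigs, both above 1 FPKM in all 3 libraries, was 1.78-fold, and 97.4% of these clusters moved less than CL11653. The sum of the contigs was more even, with 18.27 FPKM in leaves, 22.06 in roots and 33.05 in stems. The expression estimate (RSEM) divides fragments that align to both contigs between them in proportion to their estimated levels, so the sum is the firmer value. The part of this division in the contig ratios was not tested.

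CL6988.Contig2_All, the last HMGS member, had 1.62 FPKM in root and was listed at 0 in leaf and in stem. It is the only contig of cluster CL6988 in the table, which lists fewer unigenes than the study assembled, so other contigs of a cluster may be absent. No fold is given for it, since the values it would be compared with are listed zeros. At its root level, 52.6% of the unigenes above 0 in that library were lower.

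**Figure D2:**
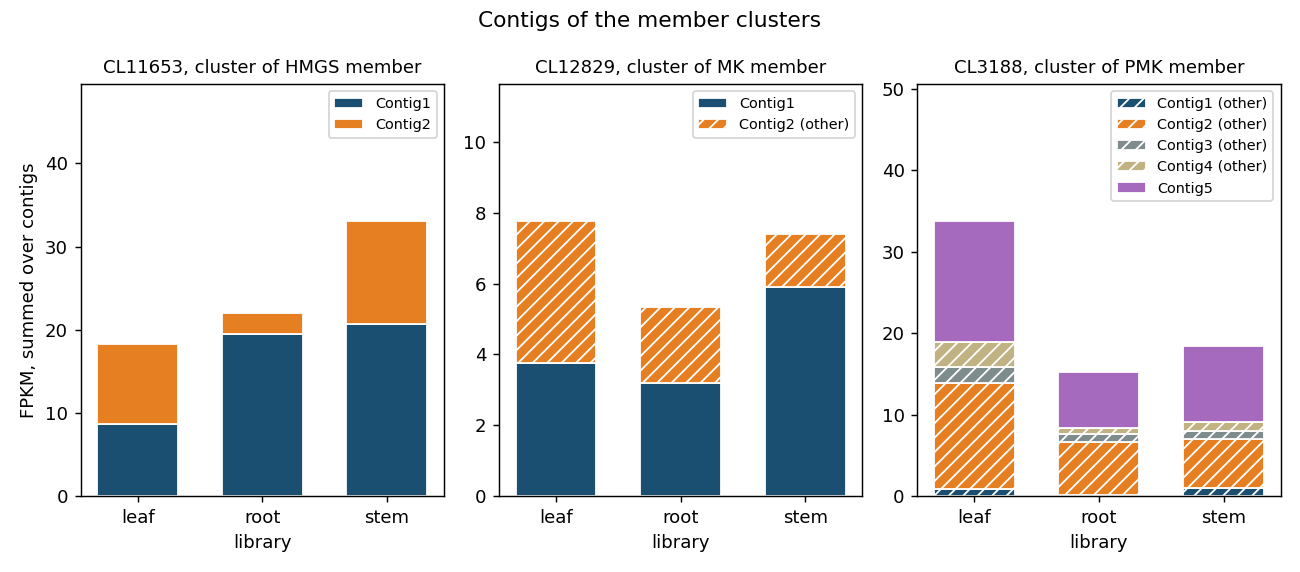
FPKM of every contig in the clusters of the HMGS, MK and PMK members, stacked for each tissue library, with plain fill for members and hatching for other contigs of the cluster. Contig1 makes up 88.3% of the root bar of CL11653 and 47.3% of its leaf bar, and the whole of CL3188 is highest in leaf at 33.74 FPKM.

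CL12829.Contig1_All of MK, the kinase that acts on mevalonate itself, had 3.75 FPKM in leaves, 3.19 in roots and 5.91 in stems. Leaf and root were close together, and stem was 1.58 times leaf and 1.85 times root. The log2 ratio of FPKM + 1 was 0.18 for leaf over root, -0.54 for leaf over stem and -0.72 for root over stem, and none of these reached 2-fold. After median-ratio scaling the ratio of leaf to root was -0.32, with root then above leaf. Stem was highest under each scaling tried.

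The cluster of the MK member holds a further contig, CL12829.Contig2, which was highest where the member was not. It had 4.01 FPKM in leaves, 2.14 in roots and 1.5 in stems. The member took 48.3% of the cluster in leaves, 59.8% in roots and 79.8% in stems, and its ratio to Contig2 was 0.94, 1.49 and 3.94 in these tissues. This ratio moved 4.21-fold, and 88.7% of the 2-contig clusters moved less. The cluster sum was 7.76 FPKM in leaves, 5.33 in roots and 7.41 in stems, so the excess of stem over leaf seen in Contig1 was not present in the sum.

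CL3188.Contig5_All, the more abundant PMK unigene, had 14.85 FPKM in leaves, 6.82 in roots and 9.32 in stems. Leaf was the high tissue, at 2.18 times root and 1.59 times stem. On the scale of FPKM + 1 the fold over root was 2.03, just past 2-fold, and the log2 ratio of 1.02 was 0.59 above the median of the unigenes expressed in all 3 libraries. A lower ratio of leaf to root was found in 73.3% of those unigenes. The log2 ratio of leaf to stem was 0.62. The log2 ratio of leaf to root became 0.44 with median-ratio scaling, and leaf was highest under each scaling tried. The log2 ratio of root to stem was -0.40 and turned to 0.15 with median-ratio scaling, so which of these tissues was lowest depended on the scaling.

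Cluster CL3188 has 5 contigs in the table, and the other 4 include CL3188.Contig2 with 12.98 FPKM in leaves, 6.49 in roots and 6.07 in stems. CL3188.Contig4 had 3.08, 0.77 and 1.11 FPKM, and CL3188.Contig3 had 1.94, 0.97 and 0.99 FPKM, in the same order of tissues. These 3 contigs were highest in leaf like the member. CL3188.Contig1 was low, with 0.89 FPKM in leaves, 0.20 in roots and 0.99 in stems. The member held 44.0% of the cluster in leaves, 44.7% in roots and 50.4% in stems, a steadier share than in the HMGS and MK clusters. The cluster sum was 33.74 FPKM in leaves, 15.25 in roots and 18.48 in stems, with a log2 ratio of 1.10 for leaf over root and 0.84 for leaf over stem.

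Unigene6783_All, the singleton of PMK, was at a lower level and had its lowest value in leaf, where CL3188.Contig5 had its highest. It had 0.43 FPKM in leaves, 1.20 in roots and 4.29 in stems. Stem was 9.98 times leaf and 3.58 times root without a pseudocount, and on the scale of FPKM + 1 these folds were 3.70 and 2.40. The values are written to 2 decimals, which leaves a rounding error of up to 0.005 FPKM, small beside these differences, while the counting error of so low a value is unknown. A lower ratio of leaf to stem was found in 5.86% of the unigenes above 1 FPKM in all 3 libraries. Unigene6783 stood at 0.03 of the level of CL3188.Contig5 in leaf, at 0.18 in root and at 0.46 in stem. The sum of both PMK members therefore differed less between leaf, with 15.28 FPKM, and stem, with 13.61, than CL3188.Contig5 alone. With the other contigs of CL3188 added, the sums were 34.17 FPKM in leaf and 22.77 in stem, so this evenness depends on the contigs summed.

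Unigene7594_All, the source of ArMVD, had 16.19 FPKM in leaves, 12.00 in roots and 11.80 in stems. It was the most abundant of the 7 unigenes in leaf, and root and stem differed by a ratio of 1.02. Its highest level was 1.34 times its lowest on the scale of FPKM + 1, and only 12.5% of the unigenes above 1 FPKM in all 3 libraries had a smaller range. The log2 ratio was 0.40 for leaf over root and 0.43 for leaf over stem. The ratio to root differed from the median of those unigenes by -0.03, while the ratio to stem was 0.36 above the median. After median-ratio scaling Unigene7594 had 13.7 in leaves, 15.9 in roots and 10.2 in stems, with root highest instead of leaf.

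**Figure D3:**
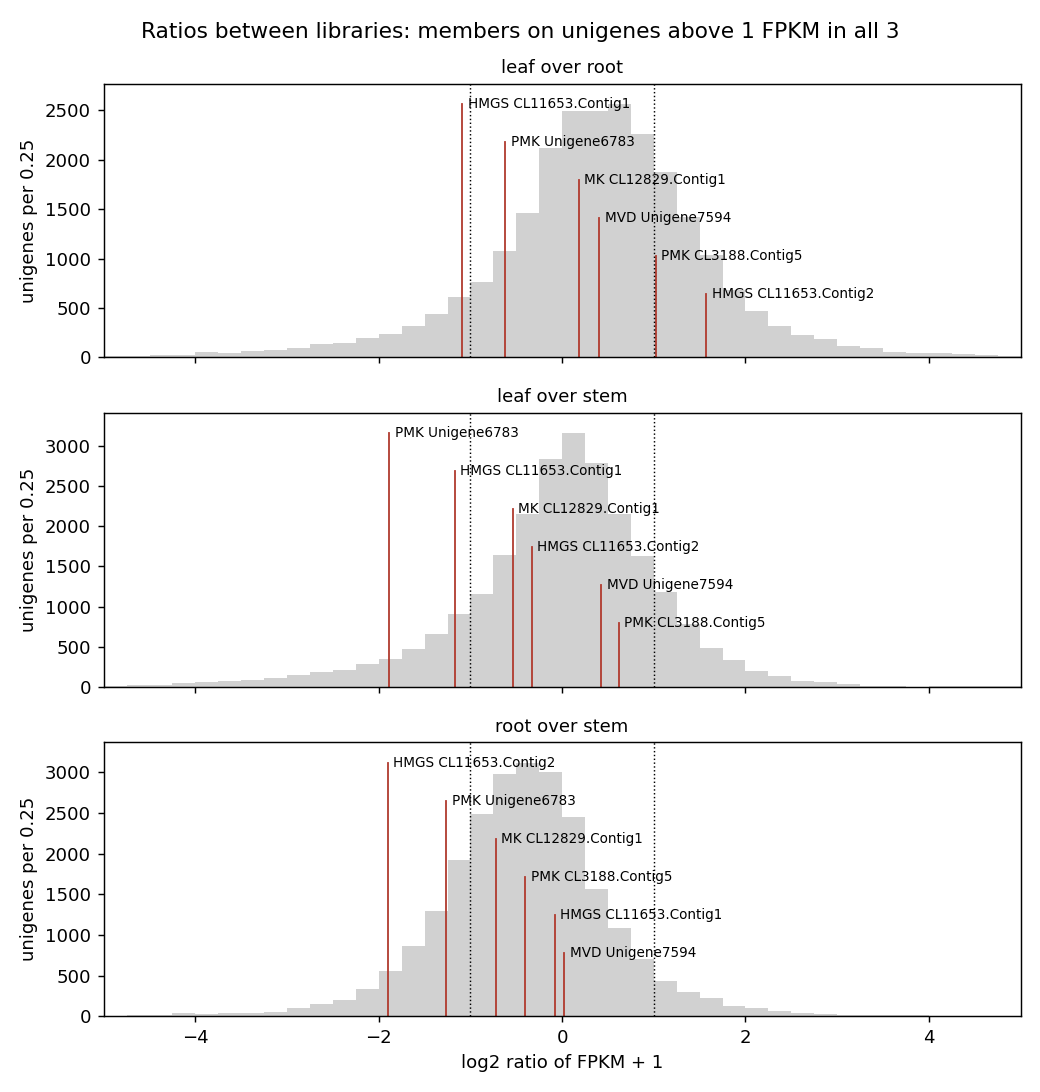
Log2 ratio of FPKM + 1 between each pair of libraries for the 24505 unigenes above 1 FPKM in all 3 libraries (grey, unigenes per bin of 0.25) and for 6 members (red lines, labelled; line height has no meaning), with dotted lines at 2-fold. CL6988.Contig2, listed at 0 in leaf and stem, is left out, and Unigene6783 is drawn although it is at 0.43 FPKM in leaf. The grey mass lies to the right of 0 for leaf over root, where Unigene7594 falls at its median.

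The members past 2-fold on the scale of FPKM + 1 were counted for each pair of libraries. CL11653.Contig2 and CL3188.Contig5 exceeded their root level in leaf by at least 2-fold, which is 2 of 7, where 20.2% of all unigenes were. CL11653.Contig1 and CL6988.Contig2 were at least 2-fold lower in leaf than in root, again 2 of 7, where 18.0% of all unigenes were. Between leaf and stem, 0 of 7 were at least 2-fold higher in leaf, beside 12.3% of all unigenes. CL11653.Contig1 and Unigene6783, 2 of 7, were at least 2-fold lower in leaf than in stem, beside 16.5%. Between root and stem, CL6988.Contig2 was the 1 member at least 2-fold higher in root, beside 14.2%, and CL11653.Contig2 and Unigene6783, 2 of 7, were at least 2-fold lower in root, beside 19.8%. With 7 members, these shares are near those of the whole table. The whole table is an unlike set, since 24505 of its 88591 unigenes were above 1 FPKM in all 3 libraries, against 5 of the 7 members. The calls of CL6988.Contig2 rest on listed zeros. The median log2 ratio of the 7 members was 0.18 for leaf over root, -0.33 for leaf over stem and -0.40 for root over stem. The medians over all 88591 unigenes were 0.02, 0.00 and -0.24. Over the unigenes above 1 FPKM in all 3 libraries they were 0.43, 0.06 and -0.42. Beside these, the members were lower for leaf over root and for leaf over stem, and about equal for root over stem. The comparisons of leaf with root and with stem share the leaf library.

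Summed over the members of each enzyme, HMGS had the highest level and MK the lowest in every tissue. HMGS had 18.27 FPKM in leaves, 23.68 in roots and 33.05 in stems. PMK had 15.28, 8.02 and 13.61 FPKM, MVD 16.19, 12.00 and 11.80, and MK 3.75, 3.19 and 5.91. MVD was above PMK in leaf and root and below it in stem, by small margins in leaf and stem. All 7 members together summed to 53.5 FPKM in leaves, 46.9 in roots and 64.4 in stems. After median-ratio scaling the sums were 45.4 in leaves, 62.1 in roots and 55.4 in stems, so that root moved from lowest to highest. These sums cover both contigs of the HMGS cluster CL11653 but 1 of 2 contigs of the MK cluster and 1 of 5 of the PMK cluster. The study counts further HMGS, MK and PMK unigenes that are not among the members, while its only MVD unigene is included. For HMGS it counts more unigenes in root than in leaf or stem, so the HMGS sum leaves out more unigenes in root. The FPKM that these would add was not measured. With all contigs of the members' clusters, added by CL number alone, the PMK sum was 34.17 FPKM in leaves, 16.45 in roots and 22.77 in stems. This was above HMGS in leaf and below it in root and stem. The PMK sum holds more sequences than the study counts for PMK, so not all of them are annotated as PMK there. By such sums MK had 7.76, 5.33 and 7.41 FPKM and was still the lowest in each library.

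**Figure D4:**
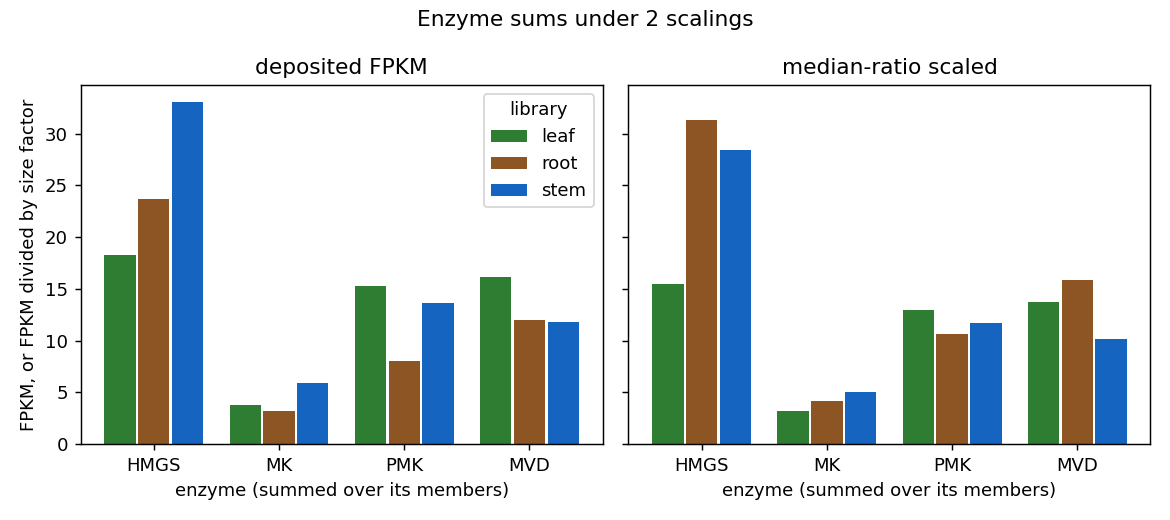
Levels summed over the members of each enzyme in leaf, root and stem, as deposited FPKM (left) and after division by median-ratio size factors (right). Over these members HMGS is highest and MK lowest in each library in both panels, while the highest tissue changes from stem to root for HMGS and from leaf to root for MVD.

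Ratios of enzymes within a library do not depend on the scaling, but they do depend on the contigs that are summed. The HMGS sum was 1.13 times MVD in leaf, 1.97 times in roots and 2.80 times in stems. The MK member stood at 0.23 of MVD in leaves, 0.27 in roots and 0.50 in stems. The PMK sum stood at 0.94 of MVD in leaves, 0.67 in roots and 1.15 in stems. With all contigs of the clusters, added by CL number alone, MK stood at 0.48, 0.44 and 0.63 of MVD, in the same order of tissues. The PMK sum then stood at 2.11, 1.37 and 1.93 times MVD, although not all of its contigs are annotated as PMK in the study. Over the members alone, HMGS thus made up 34.2% of the summed level of the 4 enzymes in leaves, 50.5% in roots and 51.3% in stems, and the share of MVD was 30.3%, 25.6% and 18.3%. With all contigs of the clusters the HMGS share was 23.9%, 41.2% and 44.0%, and the MVD share 21.2%, 20.9% and 15.7%. The largest share in leaf was then that of the PMK sum, at 44.7%.

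The 7 cloned unigenes named in the study's methods, ArMVD among them, place these levels in the wider pathway. HMGR, the step between HMGS and MK and a known control point of the pathway, was represented by CL11002.Contig1 (ArHMGR1) and CL11002.Contig2 (ArHMGR2). The study counts many more HMGR unigenes, which are not included here. ArHMGR1 had 10.33 FPKM in leaves, 59.50 in roots and 144.29 in stems, and ArHMGR2 had 8.08, 174.90 and 10.72. Relative to ArMVD, ArHMGR1 was at 0.64 in leaves, 4.96 in roots and 12.2 in stems, and ArHMGR2 at 0.50, 14.6 and 0.91. In leaf each of these HMGR contigs taken alone was therefore below ArMVD, while both together were above it. On the scale of FPKM + 1 the members following HMGR varied less over the tissues than these contigs. The range of ArHMGR1 was 12.8-fold and that of ArHMGR2 was 19.4-fold on this scale, against 1.65-fold for the MK member, 2.03-fold and 3.70-fold for the PMK members and 1.34-fold for ArMVD. Without the pseudocount the range of Unigene6783, 9.98-fold, came closer to that of ArHMGR1, 14.0-fold.

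Of the cloned MEP unigenes, CL1159.Contig3 (ArDXR, which forms methylerythritol phosphate) had a pattern close to that of the PMK member CL3188.Contig5, with 11.02 FPKM in leaves, 4.83 in roots and 5.75 in stems. Unigene5791 (ArHDS, late in that pathway) had 142.07, 32.37 and 70.63 FPKM. CL1787.Contig4 (ArHDR, its last enzyme) had 23.41, 12.23 and 40.29 FPKM, and Unigene11038 (ArDXS, its first enzyme) had 4.16, 2.01 and 71.76. Of the 7 cloned unigenes, 2 exceeded their root level in leaf by at least 2-fold, ArDXR and ArHDS, beside 20.2% of all unigenes, and 2 were at least 2-fold lower, ArHMGR1 and ArHMGR2, beside 18.0%. For ArDXR the log2 ratio was 1.04, and 0.49 after median-ratio scaling, which is under 2-fold. ArMVD was in neither group and had the smallest range of the 7.

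The unigenes with the most similar levels were found by the Euclidean distance of log2(FPKM + 1) over the 3 libraries, a likeness over 3 values that is common among so many unigenes. For Unigene7594 they were CL8635.Contig3, with 15.88 FPKM in leaves, 12.21 in roots and 11.92 in stems at a distance of 0.04, and CL6676.Contig5 at 0.06. For CL3188.Contig5 they were Unigene2706 at 0.08 and CL8773.Contig2 at 0.10, and for CL12829.Contig1 they were CL7943.Contig3 at 0.08 and CL7864.Contig3 at 0.08. The nearest to CL11653.Contig1 were CL12469.Contig4, with 9.58, 19.79 and 20.99 FPKM at a distance of 0.14, and CL7114.Contig1 at 0.17. Counting the unigenes above 1 FPKM in all 3 libraries whose log2 ratios of leaf against root and against stem were both within 0.25 of the member gave 1397 for Unigene7594, 1223 for CL3188.Contig5 and 1072 for CL12829.Contig1. For CL11653.Contig1 there were 233, so its profile in deposited FPKM, low in leaf with root and stem close together, was the least common of these 4.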

How the data were processed

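The study removed adapters and low-quality reads, with Trimmomatic named in the processing notes, assembled the reads de novo with Trinity, reduced redundancy with TGICL and aligned the clean reads to these sequences with Bowtie2. The values the authors deposited are FPKM, estimated with RSEM and written to 2 decimals. From these were computed ratios of FPKM + 1 (the study's pseudocount), percentages among all unigenes, cluster sums and ratios within a library. A fold threshold of 2 was used as a description. The study's own test between tissues uses read counts, which were not used here, so no p-value is given. A member's share of its cluster was taken over all contigs in the table with the same CL number. The unigenes named are the 7 members, the contigs of their clusters, the 7 cloned ones and the 2 nearest profiles for the most abundant member of each enzyme. Members and lists were chosen with earlier results of these data known. Alternatives were other pseudocounts, scalings, folds, a filter on low values and cluster sums. Python 3.11.15 was used with matplotlib 3.10.9, pandas 2.3.3 and numpy 2.4.6. The fold calls, the median-ratio size factors and the depth estimate were tested on simulated data, and the other steps were not.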

Additional observations from a re-analysis of the deposited data

How the results depend on the processing

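The counts of members past 2-fold moved by more than 1.5 times under several alternatives, which for counts this small means by 1 or 2 members. The count higher in leaf than in root was 2 and became 1 with TPM, with median-ratio scaling, with upper-quartile scaling, with TPM computed without the 100 most abundant unigenes and with cluster sums, and 0 with a pseudocount of 5 or a fold of 3. The count lower in leaf than in root was 2 and became 1 when members at or below 1 FPKM in either library were left out or with cluster sums, and 0 with a pseudocount of 5 or a fold of 3. The count higher in leaf than in stem went from 0 to 1 at a fold of 1.5. The count lower in leaf than in stem was 2 and became 1 with the filter at 1 FPKM, with cluster sums and at a fold of 3, and 0 with a pseudocount of 5. The count higher in root than in stem was 1 and became 0 with the filter, with a pseudocount of 5 and at a fold of 3. The count lower in root than in stem was 2 and became 1 with a pseudocount of 5, median-ratio scaling, upper-quartile scaling, cluster sums and a fold of 3. Members highest in leaf went from 2 to 1 with median-ratio and upper-quartile scaling, where Unigene7594 became highest in root. Members highest in root went from 1 to 2 with both forms of TPM, to 3 with median-ratio and upper-quartile scaling, and to 0 among members above 1 FPKM in all 3 libraries. Members highest in stem went from 4 to 3 under each alternative. The log2 ratio of leaf to root of CL11653.Contig2 was 1.57 and turned to -0.26 with the cluster sum, which by its construction includes CL11653.Contig1. No other ratio that was itself past 2-fold changed direction. Below 2-fold, median-ratio scaling turned the log2 ratio of root to stem from -0.40 to 0.15 for CL3188.Contig5 and from -0.08 to 0.51 for CL11653.Contig1, and upper-quartile scaling to 0.18 and 0.54. Median-ratio scaling also turned the log2 ratio of leaf to root from 0.40 to -0.20 for Unigene7594 and from 0.18 to -0.32 for CL12829.Contig1. With the cluster sum, the log2 ratio of leaf to stem of CL12829.Contig1 turned from -0.54 to 0.06. No paired analysis was possible because each tissue has 1 library. The number of reads behind single values is unknown, and it limits CL6988.Contig2 and Unigene6783 most.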
